A study of Mus musculus with 21 samples.

Results

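The regions described here are genomic intervals between annotated genes that the array tiles with 60-base probes as candidate long intergenic non-coding RNAs (lincRNAs), each named only by its chromosome, start and end in the mm9 build of the mouse genome and by a strand letter, F or R. A region was 1 interval on 1 strand, and of its probes only those without a value in the deposited normalized table were kept. Probe counts of a region are of the kept ones. The regions were then chosen by a measured flag: at least 1 probe had to be well above background, as the scanner software calls it, in a share of 0.5 or more of the myofibers of either type. Of 4321 regions with 1 or more kept probes, 15252 probes in all, 3739 (86.5%) were detected in this way, and the array names 4607 regions in all. The detected regions stood for 2832 intervals and 1930 separate loci, because intervals overlap and many are tiled on both strands.

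The samples were 21 single myofibers isolated by collagenase from CD1 mice aged 3 months, each hybridised to 1 single-color array. Of these, 11 were type 1 myofibers from soleus and 10 were type 2B myofibers from EDL, typed by their myosin heavy chain on gels. They came from 9 untreated mice, 6 mice per type, of which 3 gave both types, and no myofibers were pooled. Fiber type and muscle go together, so that type and muscle cannot be told apart here. The labels give the mice as male, whereas the methods of the study give females for these experiments.

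Slow type 1 myofibers use oxidative metabolism and contract through the slow myosin Myh7, and fast type 2B myofibers rely on glycolysis and the myosin Myh4. lincRNAs are long transcripts from between protein-coding genes that lack a recognised coding sequence, and many were first proposed from chromatin marks of transcription over regions without a known gene. Some of them act on chromatin, bind microRNAs or host them, and a few transcripts first listed as non-coding were later found to encode micropeptides, of which myoregulin, an inhibitor of the calcium pump SERCA in skeletal muscle, is one.

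Sequences of the probes on which the main results turn are given first, 5′ to 3′ with their mm9 positions. The 3 probes of chr1:20669157-20672643_F, the region with the widest fitted difference toward type 1, lie at chr1:20671883-20671942, chr1:20672069-20672128 and chr1:20672129-20672188 on the plus strand and are printed in that order without capitals.
probe A_30_P01028051: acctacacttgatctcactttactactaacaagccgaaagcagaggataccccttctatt
probe A_30_P01028955: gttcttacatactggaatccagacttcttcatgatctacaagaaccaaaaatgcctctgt
probe A_30_P01024151: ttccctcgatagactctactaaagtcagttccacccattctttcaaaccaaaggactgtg

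The interval chr6:37630192-37682692, with the widest fitted difference toward type 2B, holds an exactly complementary pair at chr6:37665191-37665250, printed in capitals over its 60 complementary bases, first the plus and then the minus strand.
probe A_30_P01028920: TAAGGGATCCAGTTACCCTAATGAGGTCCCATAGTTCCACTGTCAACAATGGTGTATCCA
probe A_30_P01029908: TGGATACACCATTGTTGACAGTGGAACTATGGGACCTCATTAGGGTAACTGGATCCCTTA

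A probe of the region chr10:69679644-69682458_F, at chr10:69682331-69682390, shares 48 bases, in capitals, with the probe of the myoregulin gene at chr10:69682319-69682378, and the 2 are shown because they tie the region to a named gene.
region probe A_30_P01029918: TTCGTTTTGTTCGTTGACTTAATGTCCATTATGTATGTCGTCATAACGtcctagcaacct
myoregulin probe A_51_P199352: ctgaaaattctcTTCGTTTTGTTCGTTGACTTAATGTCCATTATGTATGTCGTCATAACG

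The probes at chr1:78591616-78591675 and chr1:78591676-78591735 of chr1:78591605-78606083_R, both on the minus strand, adjoin with no base between them and gave unlike differences, so both are printed without capitals.
probe A_30_P01022829: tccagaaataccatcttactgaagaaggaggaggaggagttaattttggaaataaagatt
probe A_30_P01030196: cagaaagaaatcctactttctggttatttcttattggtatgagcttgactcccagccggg

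Finally, probes of called regions on different chromosomes carry almost the same bases. Capitals mark the bases that match: 51 of 53 aligned bases between chr5:96603254-96603313 and chr14:55445153-55445212, and 56 of 60 between chr2:59237195-59237254 and chr17:41238964-41239023.
chr5:96591892-96606467_R, probe A_30_P01020380: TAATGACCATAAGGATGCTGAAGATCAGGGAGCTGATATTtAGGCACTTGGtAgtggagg
chr14:55433382-55452757_F, probe A_30_P01029804: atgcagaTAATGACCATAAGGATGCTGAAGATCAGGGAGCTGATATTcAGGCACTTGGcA
chr2:59235155-59242518_F, probe A_30_P01031241: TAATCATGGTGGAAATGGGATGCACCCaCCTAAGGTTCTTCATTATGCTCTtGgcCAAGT
chr17:41231055-41249764_R, probe A_30_P01018386: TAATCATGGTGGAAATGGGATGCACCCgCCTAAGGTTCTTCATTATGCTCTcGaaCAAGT

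The arrays differed in brightness. On the 8 arrays of slide 1, which held 4 myofibers of each type, 71.1 to 79.3% of the region probes were well above background, against 32.5 to 60.1% on the 13 arrays of the other slides. The type labels were borne out by the 7 slow fiber genes of the marker list, all higher in type 1, and by the 9 genes of the fast 2B list, all higher in type 2B past Benjamini-Hochberg and 7 of them past Bonferroni. The type 1 myofiber S6.4 stood apart: its Myh7 log2 intensity was 9.22, against 15.53 to 16.28 in the other 10, and that of Myh2, the 2A myosin, was 15.22, against 1.73 to 13.03. Results below were therefore also taken without it. For markers of other cells the summed log2 levels overlapped between types, with ranges in type 1 and type 2B of 9.84 to 12.95 and 9.22 to 12.08 for satellite cells, 10.59 to 11.84 and 10.55 to 12.03 for endothelium, 8.49 to 13.08 and 8.58 to 9.58 for blood, and 8.13 to 12.21 and 7.73 to 9.43 for connective tissue. One of 4 satellite cell markers passed the Bonferroni threshold (Ncam1, a surface adhesion molecule also found in muscle fibers, with a log2 difference of -2.48). Past Benjamini-Hochberg but not Bonferroni was the connective tissue marker Col3a1, a collagen, at -2.45, also toward type 1. The endothelial marker Tek, a receptor kinase, was well above background in 9 of 11 type 1 and 4 of 10 type 2B myofibers. Tek thus entered the test only through type 1, and its fitted difference of -1.78 is given without a test. Myf5 and Pdgfra were well above background on no array. The part of these cells in the results was not tested.

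Detection itself was uneven. Of the 4321 regions, 1980 had a probe well above background in all 21 myofibers and 110 had none in any of them. At the edge of the rule, 183 regions were detected with exactly 5 of 10 or 6 of 11 myofibers of a type, and 155 fell just under it. All probes passed in 1477 regions, so that 9439 of the 15252 probes (61.9%) entered the test. Most detected regions, 3478 (93.0%), were detected in both types, 105 in type 1 alone and 156 in type 2B alone. Regions detected in 1 type alone passed only through the type in which they were bright.

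GC content moved with detection. The share of region probes that passed was 28.4% at a GC content of up to 30% and 95.2% above 55%, and for the other probes of the array these shares were 35.1% and 95.1%. Detected region probes had a mean GC content of 46.5% and those not detected 40.2%. The share of tested region probes past the Benjamini-Hochberg threshold went the other way, from 9.41% at up to 30% GC to 4.88% above 55%. Among chromosomes, detection ranged from 76.0% of the regions of chromosome 10 to 91.2% of those of chromosome 11. The name intergenic did not hold for every region, since 714 of the 3739 detected regions (19.1%) contained a probe with a gene name.

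**Figure D1:**
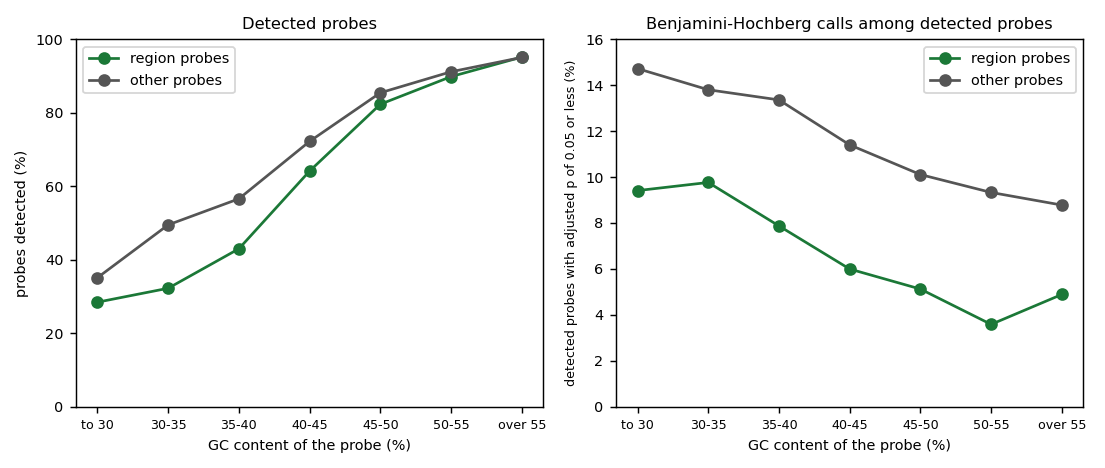
Share of probes detected, and share of tested probes past the Benjamini-Hochberg threshold, by GC content of the 60-base probe in percent, for region probes and the other probes of the array. Region probes rise from 28.4% detected at the lowest GC content to 95.2% at the highest, the other probes from 35.1% to 95.1%, and the share past the threshold is lower for region probes in every bin.

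Which of the regions differed between slow and fast myofibers was asked with limma over all 36393 probes tested on the array, on log2 quantile-normalized intensities with the mouse as a random block. A difference is the mean log2 intensity of type 2B less that of type 1, so that a negative value stands for a higher signal in type 1. Of all probes tested, 1.93% passed the Bonferroni threshold, 10.13% the Benjamini-Hochberg threshold, and in 6.09% the means per mouse of type 1 and type 2B lay apart. Of the region probes, 85 (0.901%) passed Bonferroni, 43 higher in type 2B and 42 in type 1, and 570 (6.04%) passed Benjamini-Hochberg. In 3.76% of them the mouse means lay apart. For the other probes these shares were 2.29%, 11.6% and 6.91%, and the gap between the kinds of probe is a description. The median difference was 0.06 over region probes and 0.01 over all probes.

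Counted by region, 55 had at least 1 probe past the Bonferroni threshold, 25 higher in type 2B and 30 in type 1. They lay in 49 intervals at 47 loci. By the Benjamini-Hochberg adjustment 366 regions were called, 198 toward type 2B and 168 toward type 1. A region with more probes has more chances to be called, and called regions had a median of 3 tested probes against 2 over all detected regions. Of the 55, 49 were detected in both types, and 6 were detected in 1 type alone and so entered the test only through the type in which they were bright. Detection is counted by region here. Among the 49, too, the called probe could be detected in 1 type alone, and it then entered the test in the same way. Just inside the threshold lay chr14:55671783-55680316_R, with a difference of -1.33 (SE 0.20, adjusted p = 0.0492), and just outside it chr17:85418489-85427364_F, with -1.95 (SE 0.30, adjusted p = 0.0592).

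In the 31 regions named below that passed Bonferroni, the 6 mouse means of type 1 and the 6 of type 2B lay apart, which restates how they were chosen. For 5 of them, detected in 1 type alone, values are given without a test. The single myofibers of the types did not overlap in 26 of them, which likewise follows in part from their choice. The share of all probes with such a gap was not taken. All 31 kept their direction within each of slides 1, 2 and 5, at no less than 0.37 of the size over all myofibers. Without S6.4, 52 regions were called, and of the 31 only chr18:25631027-25631571_R and chr3:68867193-68876128_F no longer passed. With S6.4 or 1 mouse left out in turn, 10 cases, 17 of the 31 kept their call each time and 13 lost it without mouse 3. The least stable were chr9:96632664-96653249_R and chr18:25631027-25631571_R, each lost in 7 of the 10 cases, and chr3:68867193-68876128_F and chr6:67052066-67119366_R, each lost in 6.

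**Figure D2:**
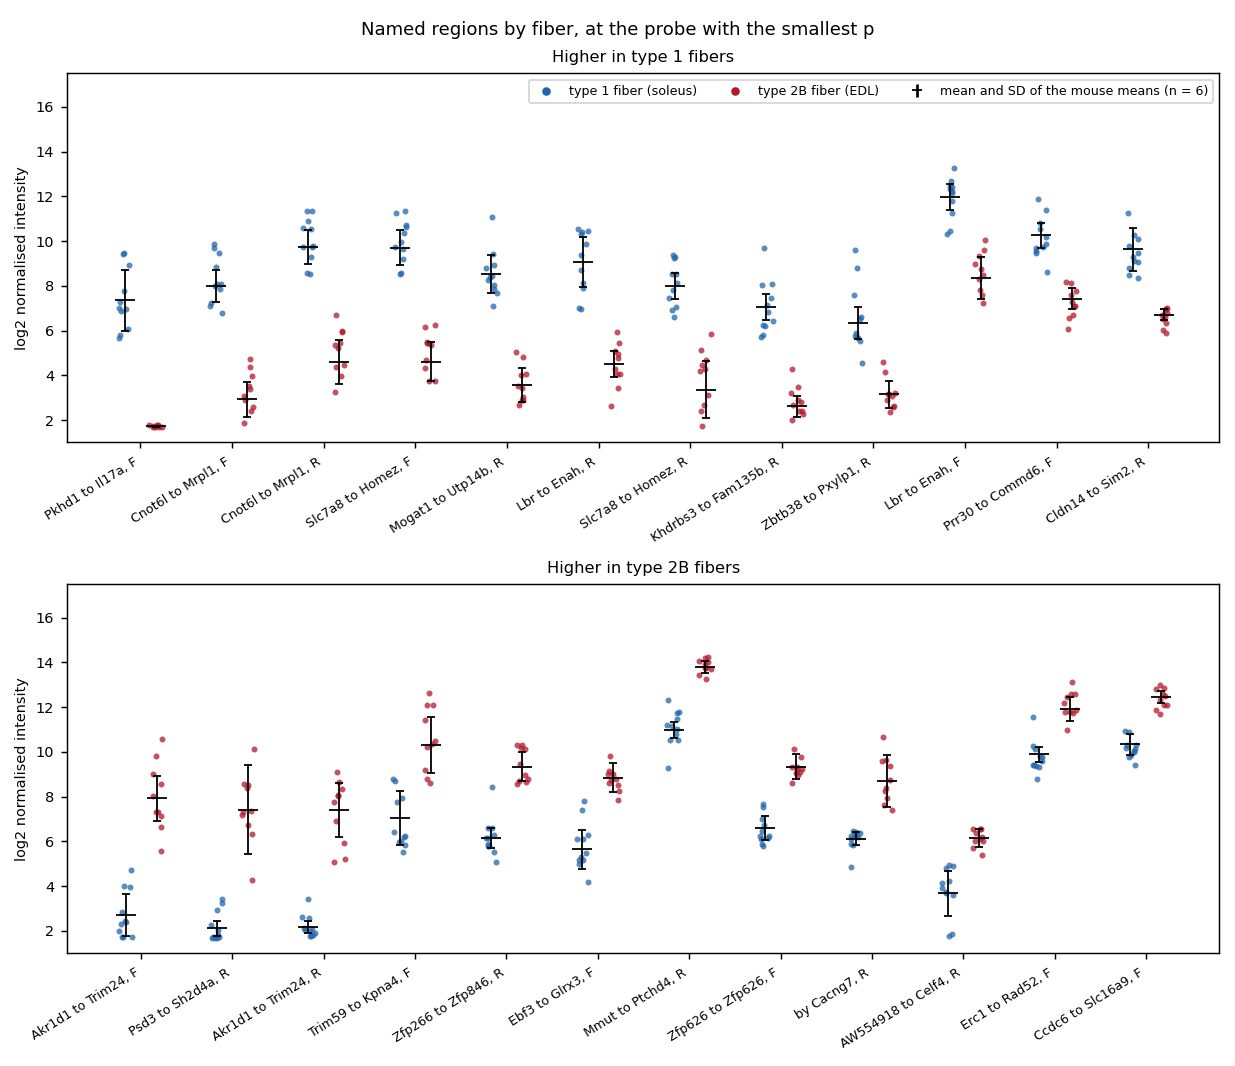
Log2 quantile-normalized intensity of each myofiber (points, 11 type 1 and 10 type 2B) for the 12 regions with the widest differences in each direction, labelled by flanking genes (for 1 region by the gene on 1 side) and strand, with the mean ± SD of 6 mouse means per type. The clouds of the types are separate for most regions, and the widest gap between the nearest myofibers of the types is that of the region between Pkhd1 and Il17a.

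A region bright in type 1 and at background in type 2B was chr1:20669157-20672643_F, an interval of 3487 bases between the probes of Pkhd1, a gene of polycystic kidney disease, 72512 bases away, and Il17a, an interleukin, 51761 bases away. RefSeq's gene order places Lincmd1, Mir206 and Mir133b between these genes. Mir206 and Mir133b are muscle microRNAs, and linc-MD1 is a long non-coding RNA of muscle differentiation that binds microRNAs. In type 1 myofibers the log2 intensity ran from 5.66 to 9.47 (median 7.03, n = 11), and in type 2B from 1.67 to 1.78 (median 1.74, n = 10). The probe was well above background in all 11 type 1 myofibers and in none of type 2B, so that only a bound can be given, and the signal was at least 7.99-fold higher in type 1. The bound sets the mean of the bright group against the lowest signal well above background on each array. Its other probes were well above background in 10 and 11 type 1 myofibers and in 3 and 0 of type 2B. Pkhd1 itself had -0.08 (SE 0.24) and Il17a was well above background in no myofiber. Under normexp background correction, with an offset of 50, the difference of chr1:20669157-20672643_F was -2.09, against -5.67 without it, so that its size depends on how signals at background are treated.

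The interval chr5:96591892-96606467, between Cnot6l, a subunit of the deadenylase that shortens mRNA tails, and Mrpl1, a mitochondrial ribosomal protein, was higher in type 1 on both strands. On strand F the log2 intensities were 6.77 to 9.88 (median 8.07) in type 1 and 1.86 to 4.75 (median 3.25) in type 2B, with a fitted difference of -4.98 (SE 0.42). In type 2B this probe was well above background in 1 of 10 myofibers, which leaves the size of the difference uncertain. On strand R they were 8.53 to 11.35 (median 9.77) and 3.26 to 6.72 (median 5.30), with a difference of -4.95 (SE 0.43, adjusted p = 2.8e-06) and 6 of 10 type 2B myofibers well above background. The myofibers of the types did not overlap on either strand, and the 3 probes of strand F all went toward type 1. On strand F the probe with these values passed the detection rule only through type 1, so its lack of overlap is no test. The 4 probes of strand R gave -2.51, -0.74, -4.95 and -2.71.

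On chromosome 14 the interval chr14:55433382-55452757, between Slc7a8, an amino acid transporter, and Homez, a homeobox gene, was also brighter in type 1 on both strands, by -4.93 on F (SE 0.40, adjusted p = 7.1e-07), with 5 of 10 type 2B myofibers well above background. On R the 1 probe kept, at -4.21 (SE 0.48), was detected in type 1 alone, with 2 of 10 type 2B myofibers well above background, and is given without a test. Another probe named for the R region, left out because the deposited table holds a value for it, had a fitted difference of -5.57. RefSeq places the pseudogene Gm17772 between its flanking genes. Strand F ran from 8.54 to 11.34 (median 9.98) in type 1 and from 3.73 to 6.27 (median 5.38) in type 2B, a pattern close to that of chromosome 5 strand R. Each r between probes was taken over the 21 myofibers on deviations from the mean of each type. The type difference itself is thus left out of it. The near-identical probes printed above correlated at r = 0.90, and the other like pairs of these intervals, aligned over 41 to 55 bases, at r from 0.60 to 0.77. A probe of the pseudogene Gm2518 also matched a chromosome 5 probe in 46 of 53 bases, with a difference of -2.63. Which of these places the signal comes from cannot be told apart, so the calls on chromosomes 5 and 14 cannot be counted as separate results. Myh6, the alpha cardiac myosin, whose probe lies 115562 bases from the chromosome 14 region, had a difference of -7.37.

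Near-identical probes were few among the regions. Of 9439 tested region probes, 317 (3.36%) had a probe elsewhere that matched in at least 85% of 30 or more aligned bases, and 9 of the 85 called probes did. The 355 pairs with both probes tested had a median r of 0.87, and 79.2% went the same way. The second such case among the called regions was chr17:41231055-41249764_R with chr2:59235155-59242518_F. Both were higher in type 2B, by 2.76 (SE 0.28) and 2.18 (SE 0.23) at the probe with the smallest p. Their like probes, printed above, gave 2.08 and 2.15 and correlated at r = 0.99. The source of the signal of these like probes likewise cannot be told apart. The 2.76 was measured at another probe of chr17:41231055-41249764_R, for which no such match was found.

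Beside the gene Enah, a regulator of actin filament growth, 2 overlapping regions on opposite strands were higher in type 1. chr1:183783306-183834531_F, whose last bases lie 45 bases from an Enah probe, ran from 10.32 to 13.25 (median 12.24) in type 1 and from 7.23 to 10.05 (median 8.63) in type 2B. Its difference was -3.32 (SE 0.39, adjusted p = 0.00056), and all 10 of its probes were lower in type 2B and passed Benjamini-Hochberg, with differences from -2.43 to -3.70. On the other strand chr1:183832694-183834125_R had a fitted difference of -4.60 (SE 0.50), with 4 of 10 type 2B myofibers well above background. Its 3 probes all went toward type 1. The Enah probes went the same way, at -2.27 and -3.14, past Benjamini-Hochberg.

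A probe may also stand beside a gene that moved the same way. chr15:68924889-68931607_R, represented by 1 probe 954 bases from Khdrbs3, an RNA-binding splicing regulator, was well above background in all 11 type 1 myofibers and in none of type 2B, and was at least 6.29-fold higher in type 1. Under normexp correction the fitted difference of chr15:68924889-68931607_R was -1.63, against -4.20 without it. Khdrbs3 itself had a difference of -4.89. In chr14:101834175-102005450_F, which contains probes of Tbc1d4, a Rab GTPase regulator of glucose uptake, the difference was -2.92 (SE 0.35, adjusted p = 0.0011) and all 5 probes went toward type 1, as did the 2 Tbc1d4 probes at -4.21 and -3.32. Of these regions it cannot be told apart from the array whether the signal belongs to a transcript of its own or to the gene beside it.

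Further regions higher in type 1 were less even along their length. In chr1:78591605-78606083_R the adjoining probes printed above gave -0.18 and -4.91, and the third gave -1.70. The middle one of these, with an SE of 0.40, ran from 7.12 to 11.10 (median 8.41) in type 1 and from 2.68 to 5.05 (median 3.48) in type 2B, where 2 of 10 were well above background. A probe of the non-coding gene 5730419F03Rik over the same bases as the first gave -0.26. chr16:94055900-94120575_R had 1 of 5 probes past Bonferroni (difference -2.87, SE 0.30, adjusted p = 7.0e-05), and 3 of its 5 went that way. One probe of Sim2, a transcription factor gene beside it, was well above background in 11 type 1 and in 0 type 2B myofibers, and the other gave -0.15 (SE 0.20). chr9:96632664-96653249_R, in which the myofibers of the types overlapped, exceeded background clearly in 9 of 11 type 1 myofibers and in none of type 2B, and was at least 4.31-fold higher in type 1.

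chr16:90038086-90127636_R, between Tiam1, a guanine exchange factor, and Sod1, the cytosolic superoxide dismutase, was bright in every myofiber, from 14.25 to 15.61 (median 14.76) in type 1 and from 11.55 to 13.54 (median 12.16) in type 2B. Its difference was -2.60 (SE 0.22, adjusted p = 1.9e-06), or 6.06-fold, and 5 of its 7 tested probes went that way. The other strand had -1.68 (SE 0.41), past Benjamini-Hochberg only (adjusted p = 0.0079). In chr6:67052066-67119366 the strands gave -2.78 and -1.92, and in chr8:35650475-35664200 -1.57 and -1.79, each past Bonferroni. The probe of B930018H19Rik inside this last interval gave -0.11.

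Toward type 2B the widest fitted difference was that of chr6:37630192-37682692, between Akr1d1, a steroid reductase, 112020 bases away, and Trim24, a chromatin-reading coregulator, 233125 bases away. On strand F the log2 intensities were 1.72 to 4.71 (median 2.40) in type 1 and 5.58 to 10.55 (median 7.68) in type 2B. The fitted difference was 5.30 (SE 0.53), and its size is uncertain, as 1 of 11 type 1 myofibers was well above background. The 4 tested probes of strand F gave -0.23, 4.52, 5.15 and 5.30, so that the first did not follow the others. On strand R 1 of 4 probes could be tested, well above background in 9 of 10 type 2B myofibers and in no type 1 myofiber, with a signal at least 10.3-fold higher in type 2B. The average over all its probes, tested or not, gave 1.22. The complementary probes printed above, both well above background in 9 type 2B and no type 1 myofibers, correlated at r = 0.90. Of the flanking genes Akr1d1 was well above background in no myofiber, and Trim24 had 1.23 (SE 0.32), past Benjamini-Hochberg.

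chr8:70623390-70645212_R, between Psd3, an ARF exchange factor, and the adaptor gene Sh2d4a, ran from 1.70 to 3.42 (median 1.82) in type 1 and from 4.26 to 10.13 (median 7.35) in type 2B. The fitted difference was 5.27 (SE 0.49), with 2 of 11 type 1 myofibers well above background, and the 3 probes of the region gave 1.58, 5.27 and 4.62. Sh2d4a moved the other way, with a fitted difference of -2.50. It was well above background in 10 of 11 type 1 and 2 of 10 type 2B myofibers. Sh2d4a thus entered the test only through type 1, and its value is given without a test. The groups of myofibers were apart here although type 2B was widely spread. The probe of chr8:70623390-70645212_R passed the detection rule only through type 2B, so this gap is no test.

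chr3:68867193-68876128_F, 64 bases from a probe of the nuclear import receptor Kpna4, had all 10 probes higher in type 2B, 8 of them past Benjamini-Hochberg and 1 past Bonferroni. That probe ran from 5.54 to 8.78 (median 6.24) in type 1 and from 8.60 to 12.64 (median 10.42) in type 2B, so the groups overlapped slightly. Its difference was 3.75 (SE 0.55, adjusted p = 0.024), and those of the others ran down to 0.12. Kpna4 itself gave -0.30 (SE 0.23).

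A named gene lay inside the regions of chromosome 10 between Ccdc6 and the transporter gene Slc16a9, where the myoregulin gene stands. chr10:69669025-69686275 on both strands and chr10:69679644-69682458_F overlap there, and all 13 of their probes passed Bonferroni with differences from 1.96 to 2.63. For the best probe of the wide region on F, type 1 myofibers ran from 9.43 to 10.95 (median 10.12) and type 2B from 11.69 to 12.99 (median 12.40), 4.63-fold higher in type 2B (difference 2.21, SE 0.21, adjusted p = 2.0e-05). The probe of myoregulin, named 2310015B20Rik on the array, gave 2.14 (SE 0.22, adjusted p = 6.2e-05), and it correlated at r = 0.98 with the region probe that shares its 48 bases. This region therefore measured in part a gene now named. Ccdc6, a coiled-coil gene, had 2.09 (adjusted p = 0.033).

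Other regions higher in type 2B were chr17:41231055-41249764_R, from 9.26 to 12.32 (median 11.16) in type 1 and from 13.25 to 14.24 (median 13.85) in type 2B, and chr7:3338500-3360725_R, whose 3 tested probes all passed (best 2.67, SE 0.34, adjusted p = 0.0022). Probes of the calcium channel subunit Cacng7 beside the latter gave 1.32 and 1.52, past Benjamini-Hochberg. chr6:119798500-119817050_F had 2.35 (SE 0.29, adjusted p = 0.0015) at its only probe, and its myofibers overlapped between types. chr18:25631027-25631571_R had a fitted difference of 2.35 (SE 0.35, adjusted p = 0.039) at 1 of 2 tested probes, the other giving -0.08. Signals of the first were low in type 1, from 1.76 to 4.95, against 5.39 to 6.57 in type 2B, so its size is uncertain.

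In 3 more regions a single probe carried the call. chr9:20313342-20323517_R had 3.21 (SE 0.35, adjusted p = 0.00016) beside -0.65 and -0.43 at its other tested probes. chr7:28604760-28605984_F, between probes of the zinc finger gene Zfp626, had 2.74 (SE 0.25, adjusted p = 5.5e-06) beside -0.67 at the adjoining probe. chr7:144563845-144603732_F had 2.94 (SE 0.36, adjusted p = 0.0017) at 1 of 8 tested probes, with the others between -0.18 and 0.91, and a probe of 9430038I01Rik within it gave -1.61.

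**Figure D3:**
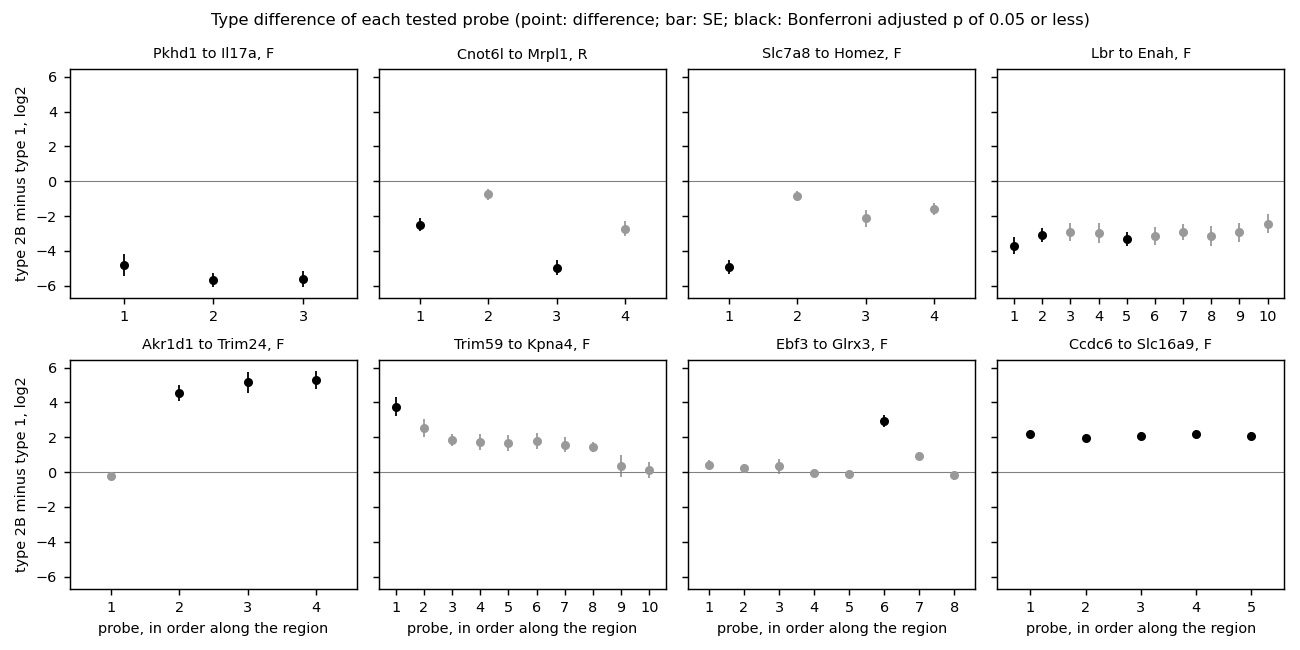
Log2 difference (type 2B minus type 1, with SE) of each tested probe, in order along the region and not to scale, for 8 regions labelled by flanking genes and strand. Probes agree throughout the regions by Enah and by Slc16a9, where the latter holds the gene myoregulin, while in the region between Ebf3 and Glrx3 1 probe at 2.94 stands apart from the rest. Where 1 type is at background, as between Pkhd1 and Il17a, the plotted differences are fitted values and not measured sizes.

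How far probes of 1 region agree was measured over all called and uncalled regions. In the 49 called regions with 2 or more tested probes there were 155 further probes, of which 112 (72.3%) had the sign of the called one. Of these, 70 passed Benjamini-Hochberg in the same direction, and 1 passed in the opposite one. In 26 of the 49 regions all tested probes had the same sign. These signs were read on the samples that made the calls and are a description.

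For all 12055 pairs of tested probes within a region, correlations were taken across the 21 myofibers with the mean of each type removed. Their median was 0.28, with quartiles of 0.02 and 0.56, and 64.7% of the pairs had differences of the same sign. For the 2956 pairs with both probes well above background in all 21 myofibers the median was 0.45 and the share 72.7%. Agreement fell with distance, from a median of 0.41 for probes under 200 bases apart to 0.09 beyond 20000 bases. Pairs of probes for 1 named gene had a median of 0.21 over 5664 pairs, and 0.55 under 200 bases. The points of each correlation share arrays, brightness and base composition, and probes of 1 region can overlap in sequence.

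**Figure D4:**
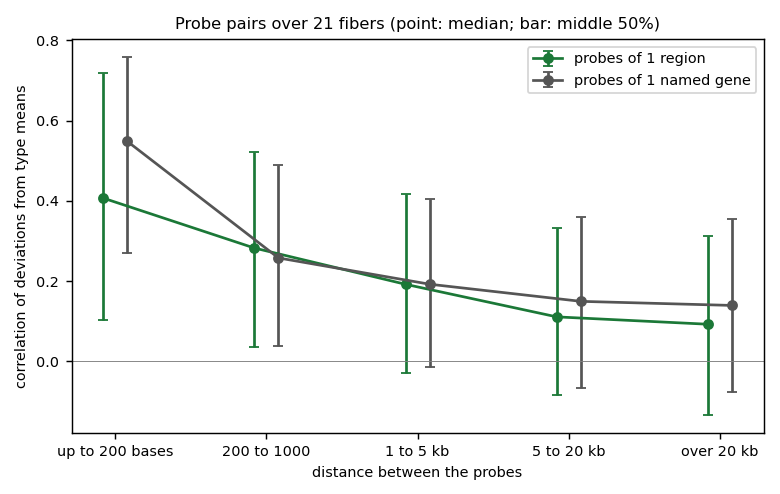
Correlation across the 21 myofibers, with the mean of each type removed, of probe pairs from 1 region and of probe pairs from 1 named gene. Pairs are grouped by the distance between the probes in bases and shown as medians with quartiles. For region pairs the median falls from 0.41 to 0.09 and for gene pairs from 0.55 to 0.14.

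The product hybridised was amplified cDNA labelled with a kit for genomic DNA, which does not keep the strand, so that F and R probes of 1 place can bind the same product. Where F and R probes overlapped by 30 bases or more, 865 pairs, the median r was 0.54 (quartiles 0.24 and 0.78), and 74.5% of the differences had the same sign. Among 269 pairs well above background in all 21 myofibers the median was 0.71, and the 53 fully overlapping pairs had 0.52. In 16 of the pairs at least 1 strand passed Bonferroni, and 15 of these had the same sign on both. In the 9 pairs in which both passed, every sign agreed. The letters F and R therefore do not give the strand of transcription.

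**Figure D5:**
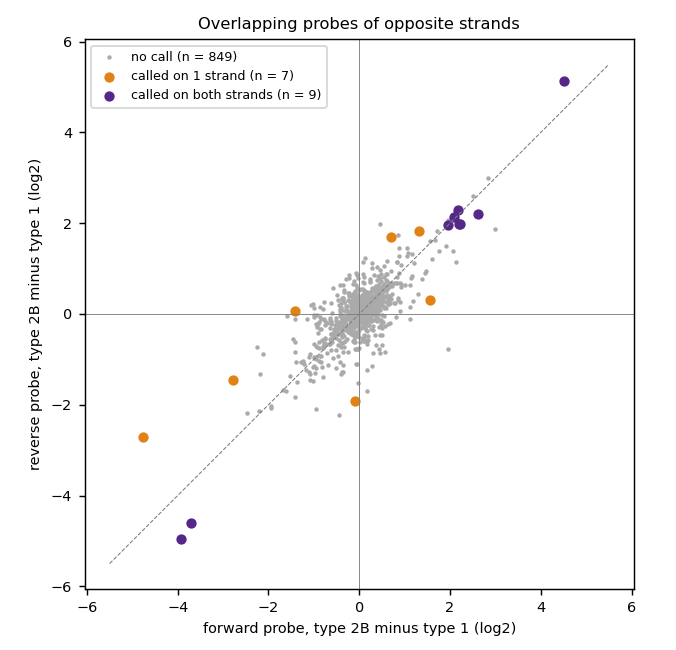
Log2 difference (type 2B minus type 1) of the R probe against that of the overlapping F probe for 865 pairs, by whether neither (849), 1 (7) or both (9) passed the Bonferroni threshold. The 9 pairs called on both strands lie in the quadrants where the signs agree.

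Few regions lay near muscle genes. Of 131 listed muscle genes 130 had a probe. Of the 3591 detected regions whose best probe lies on a chromosome with such a probe, 49 (1.36%) had one within 100 kb, as had 1 of 52 Bonferroni regions and 7 of 344 (2.03%) Benjamini-Hochberg regions. The Bonferroni region was chr14:55671783-55680316_R, near a probe of Myh7, the slow myosin. In 4 of the 7 the region and the muscle gene moved the same way, against 31 of all 49 (63.3%).

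Beside Myoz1, a Z-disc protein of fast fibers with a difference of 3.72, the regions chr14:21460230-21461364_F and chr14:21437920-21464655 on strands F and R had differences of 1.17 (SE 0.32), 1.95 (SE 0.56) and 1.42 (SE 0.36), past Benjamini-Hochberg. By contrast chr18:60789616-60807973_R had a fitted difference of -2.89 (SE 0.50), while Myoz3, another Z-disc protein, had 3.08. The region's probe was well above background in 9 of 11 type 1 and 2 of 10 type 2B myofibers. It thus entered the test only through type 1, and the size of its difference is uncertain. The other of the 2 tested probes of this region went the other way. The gene Synpo, which lies nearer to it than Myoz3, had -2.19, past Benjamini-Hochberg, and -0.63, which did not pass. chr4:130039725-130069550_R had 0.79 (SE 0.22), while Fabp3, the fatty acid carrier of heart and slow muscle, had -2.48. Probes of Snrnp40 within this interval had -0.27 and 0.05. chr12:81217572-81233910_F had -1.06 (SE 0.26) and Actn1, an actin crosslinker, 0.97 (SE 0.33), which did not pass. Zfp36l1, which lies nearer to this region than Actn1, had -1.84 (SE 0.83), which did not pass either. In all of these regions the myofibers of the types overlapped.

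To see where regions coincide with known transcripts, probes were matched to RefSeq promoter windows and microRNA hairpins of GRCm38.p6 by sequence. At 40 or more shared bases, 205 probes in 148 regions matched a promoter window and 11 probes in 9 regions a hairpin. Of the 173 promoter-matched probes that could be tested, 1 passed Bonferroni, in chr10:56151791-56184966_R at the window of the non-coding gene Gm36595 (difference -2.39, adjusted p = 0.0003), and 7 passed Benjamini-Hochberg. These 0.578% and 4.05% lie below the 1.93% and 10.13% of all probes, but matched probes are region probes, of which 0.901% and 6.04% passed. With so few matched probes called, no difference from the other region probes is read from this. The other tested probes at the Gm36595 window gave 0.48 in the same region and -0.03 and -0.27 on strand F. The 7 included chr4:155585650-155608700_R at Perm1, a muscle regulator of oxidative metabolism, with -0.80 (adjusted p = 0.0213). None of the 7 hairpin-matched probes tested passed either threshold.

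Single probes of some regions varied widely among myofibers of 1 type without a called difference between types. chr17:26911032-26912366_F ran from 6.48 to 15.12 (median 8.00) in type 2B, with an SD of 2.87, against an SD of 1.27 in type 1. chr15:79764481-79809909_F ran from 8.57 to 16.56 (median 9.13) in type 1 (SD 2.35) and from 9.13 to 10.20 (median 9.69) in type 2B (SD 0.38). chr11:95627874-95640824_R ran from 5.78 to 13.73 (median 7.66) in type 1 (SD 2.42), and in these last 2 regions the highest myofiber was the same one, S11.3, whose array is among the 6 dimmest. Of the other probes of these regions 1 of 2, 2 of 8 and 2 of 8 correlated with the probe given at r over 0.5, in the order above. The differences between types of these probes did not pass, at 0.29 (SE 0.88), -0.33 (SE 0.71) and 0.74 (SE 0.80).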

How the data were processed

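RNA of single myofibers was amplified with the TransPlex WTA2 kit for 18 cycles and labelled with Cy3, per the labels. For each of the 21 arrays the authors deposited the output of Agilent Feature Extraction 10.7.3.1, from which the processed signal was used, a linear intensity corrected for background and not normalized between arrays. They also deposited a table of quantile-normalized intensity with values for 3687 of 62976 features, which served only to tell which probes it leaves empty. In that table the columns of E13.3 and E12.5 follow each other's scanner output.

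Processed intensity was quantile normalized over the arrays and taken as log2 from the deposited values, control spots (3671) and outlier spots (0.409%) were left out, and spots of 1 probe were averaged. No spot was saturated. Probes well above background in a share of 0.5 or more of either type's myofibers (36393) were fitted with limma 3.58.1 in R 4.3.3, with the mouse as a random block (consensus correlation -0.013), and adjusted over all of them by Bonferroni, the adjustment of the study, and by Benjamini-Hochberg, both at 0.05. The value of a region is that of its probe with the smallest p. Depth in reads does not apply to arrays, whose number limits the precision. The R package data.table in version 1.17.8, and Python 3.11.15 with matplotlib 3.10.9, scipy 1.17.1, pandas 2.3.3 and numpy 2.4.6, were used for tables, tests and plots. The fit was tested on simulated data.

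Named regions were up to 12 per direction with the largest Bonferroni-called differences, those near listed muscle genes, those whose probes spread most, those called on both strands or beside another call, and the 3 most variable within a type. Named outside this rule, after their values were seen, were chr2:59235155-59242518_F, the regions at the edge of the threshold and those matching promoters. The members and gene lists were chosen with earlier results of these data known. Alternatives covered scaling, background, filters, blocks for mouse, slide and replicate number, omitted mice, distances and the methods' own test. RefSeq names and order come from GRCm38.p6, whose positions were not used, and no genome sequence was used. RefSeq symbols matched 30977 of 39487 gene-named probes. A gene beside 1 region is not reported here.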

Additional observations from a re-analysis of the deposited data

Results flagged for a closer look

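Of the 41 named regions, 1 was flagged for a myofiber standing apart from the rest of its group by Dixon's criterion, which chance alone meets in about 1 group in 20. In chr16:90038086-90127636_R the type 2B myofiber E15.3 was the highest of 10, at a log2 intensity of 13.54 against 12.51 for the next, a gap of 0.519 of the whole range of the group. It stayed below every type 1 myofiber. The flag is not a full list, since other myofibers stood as far apart at the probe with the smallest p. In chr15:79764481-79809909_F the type 2B myofiber E10.4 was at 8.81, against 7.38 for the next and 6.58 for the lowest. In chr9:20313342-20323517_R the type 1 myofiber S16.3 was at 8.44, against 6.60 for the next and 5.08 for the lowest.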

How the results depend on the processing

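Of the named regions 38 have a difference, and 31 alternatives gave 1156 values for them, of which 887 stayed on the same side of the threshold, 269 no longer passed and none changed direction. Against 55 regions called by Bonferroni, the mouse as a fixed block left 12, means per mouse 25, averaged region probes 24, the arrays of slide 1 alone 5 and those of slides 2 and 5 0 each (limma, with 529 and 936 regions at unadjusted p under 0.05). Leaving out the 6 dimmest arrays, an alternative chosen after seeing the data, left 30. Omitting S6.4 or 1 mouse at a time gave 24 to 52, the lowest without mouse 3. Of the 31 named regions past Bonferroni, 6 kept their call under every alternative other than the single slides. They include both strands of chr5:96591892-96606467 and of chr14:55433382-55452757, which cannot be counted as separate results. Benjamini-Hochberg gave 366, and 335 with the methods' t-test. The replicate block gave 25, but the replicate numbers do not pair the myofibers: of 10 same-numbered pairs 2 correlated over 0.1 (median -0.04), and 1 type 2B myofiber was closest to its own number. The other alternatives, among them 75th percentile scaling (54), normexp (53), slide as a block (40) and removal of the GC trend, also chosen after seeing the data (57), gave 37 to 58. Of 344 regions, 3 lay within 20 kb of a listed muscle gene and 26 within 500 kb, against 7 within 100 kb, and 316 of 363 within 100 kb of any gene. Asking for all myofibers of a type left 2439 regions detected. Detection limits what can be said of dim, AT-rich probes. The cause of these changes was not tested, beyond the fewer arrays or mice in each subset.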
